A study of Mus musculus with 2 samples.

Results

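The families described here are the transposable element families of the ERVL superfamily other than MERVL and MT2, measured by RNA-seq in mouse embryonic stem (ES) cells with and without the histone chaperone Daxx. They were set by superfamily and name, in a choice made with earlier results of these data known. Of 86 families that the table assigns to exactly ERVL, 2 with names starting with MERVL and 5 with names starting with MT2 were left out. This leaves 79 of the 634 families in the table. The Daxx-deleted library came from cells given 4-hydroxytamoxifen at 1 µM for 48 h and left to recover for 3 days, and the control library came from cells given DMSO. Both cultures carried the same genotype, Daxx fl/fl; RosaCreERT, on a B6/129 background, and both grew on feeder cells arrested with mitomycin C. The control cells thus also held the inducible Cre and the floxed gene. Neither cells without DMSO or drug nor cells given 4-hydroxytamoxifen that had Cre but no floxed gene were analysed here. There is 1 library in each group. No value therefore has a replicate error, no test was possible, and every difference below is one between these 2 libraries. The table lists repeat families and no genes, so the level of Daxx, ES cell markers and feeder cell markers are outside what these data show, and which library lacks Daxx is taken from the labels.

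ERVL elements are class III endogenous retroviruses, remnants of retroviral insertions that carry a long terminal repeat (LTR) at each end of an internal part, which once coded for Gag and Pol. MERVL and its LTR are the young mouse branch, known for transcription in the 2-cell embryo. The remaining families are mostly old insertions, many shared with other mammals, whose copies are usually diverged fragments or single LTRs without an internal part. Daxx works with Atrx to place the histone variant H3.3 at heterochromatin and repeats, and ERVs in ES cells are known to be held silent by H3K9 methylation and DNA methylation.

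Without Daxx the old ERVL families that met the limits given below had almost the same summed level as with it. Values are RPKM, reads per kilobase scaled here by the exonic reads of protein-coding genes, and the log2 change is that of the Daxx-deleted library over the control library with 0.001 RPKM added to both. Of the 79 families, 42 had a mean of at least 0.01 RPKM over the 2 libraries and at least 100 annotated copies, the limits used for counts below. Their summed level was 2.303 RPKM in the Daxx-deleted library and 2.297 RPKM in the control library, a ratio of 1.003, whereas the sum over all 436 families at those limits was 40.3 RPKM in the Daxx-deleted library and 35.6 RPKM in the control library, a ratio of 1.13. In these sums, drops in some families of high level stood against rises in others. LTR50, the highest of the 42, had 0.365 RPKM in the Daxx-deleted library and 0.403 RPKM in the control library. HERVL40-int and LTR41B were lower as well, while 26 of the 42 were higher. Without LTR50 the log2 ratio of sums was 0.03 in place of 0.004. The near-equal sums also depend on the limits. Over all 79 families the sum was 4.62 RPKM in the Daxx-deleted library and 4.35 RPKM in the control library. That is a ratio of 1.06, beside 1.11 over all 634 families. The median log2 change of the 42 was 0.07, with quartiles of -0.08 and 0.34, beside 0.18 for all families at the limits. The Daxx-deleted library had the higher value for 26 of the 42 (61.9%), where the share over all families was 78.9%, and the lower value for 16, where that share was 21.1%. Of the 42, 28 lay below the median family.

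Changes of 2-fold were few among them. RLTR28B was the 1 family at least 2-fold higher (2.38% of 42), where 5.28% of all families were, and HERVL74-int was the 1 family at least 2-fold lower (2.38%), where 0.459% were. HERVL74-int met the limit on level through its control value, and it is itself 1 of the 2 families that make up the 0.459%. These 2 shares therefore cannot be weighed against each other. At 1.5-fold, 5 of the 42 were higher (11.9%), where 15.1% of all families were, and 2 were lower (4.76%), where 1.38% were. The share past 1.5-fold upward was thus near that of the whole table, and the share past it downward rests on 2 families, HERVL74-int among them. After the median of all families was subtracted, 0 of the 42 were 2-fold higher and HERVL74-int remained 2-fold lower.

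**Figure D1:**
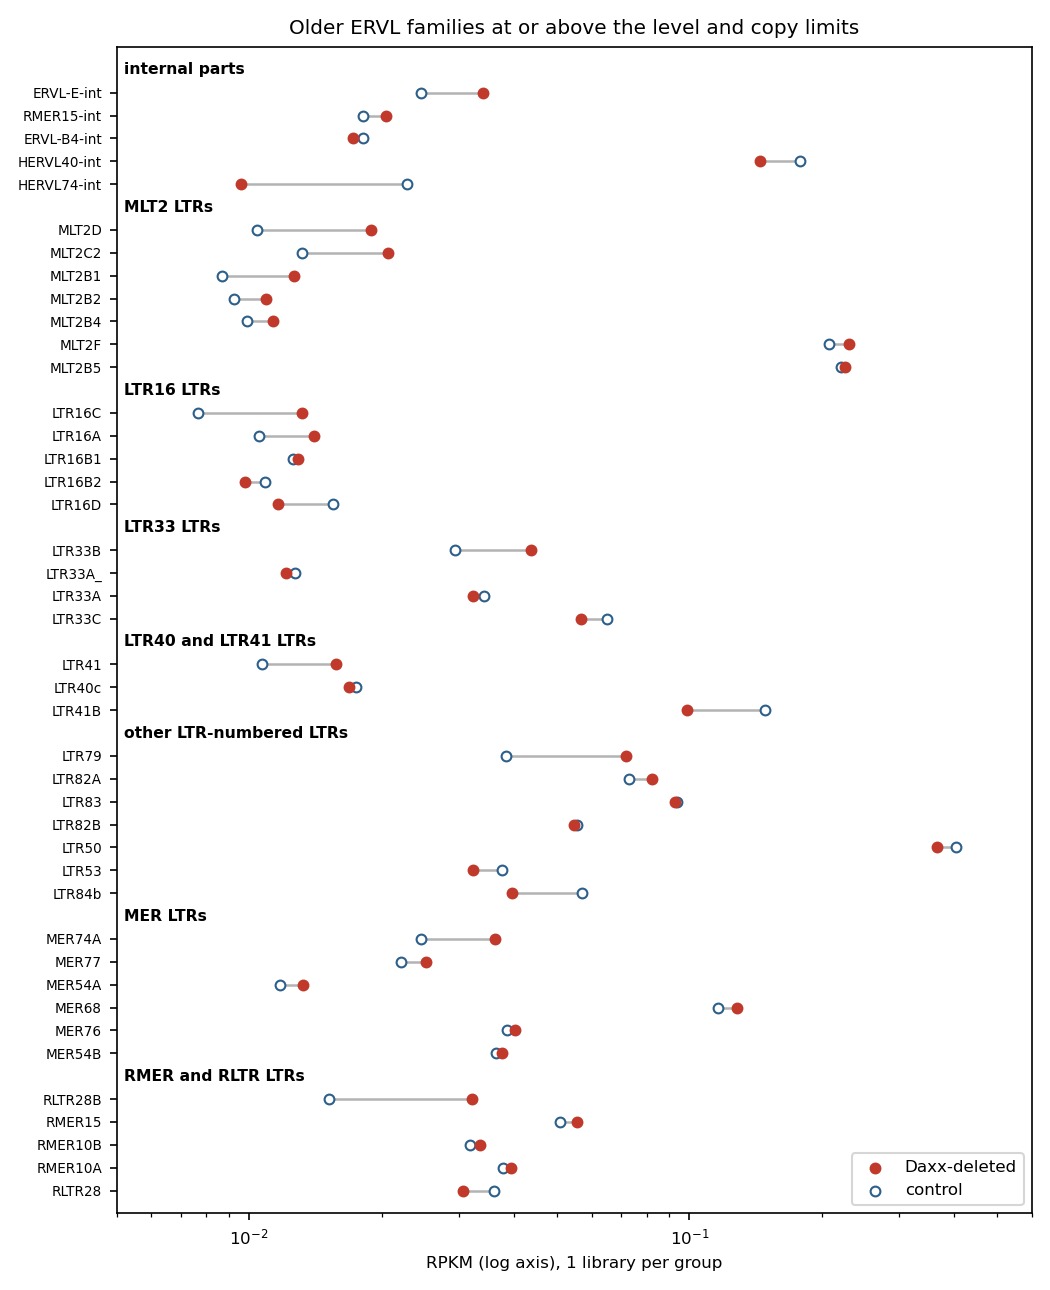
RPKM on a log axis in the Daxx-deleted library (filled points) and in the control library (open points) for the 42 families at or above both limits, grouped by name and ordered by log2 change within each group. All 7 MLT2 and all 6 MER LTRs have the filled point on the right, while HERVL74-int, LTR41B, LTR84b, LTR16D and HERVL40-int have it farthest to the left of the open point.

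Of the 12 internal parts, which hold what is left of the viral genes, 5 met both limits, 2 of them higher and 3 lower without Daxx. The shares over all families at the limits were 78.9% higher and 21.1% lower. HERVL40-int, the internal part numbered like the LTR40 repeats, was the highest of them at 0.145 RPKM in the Daxx-deleted library and 0.179 RPKM in the control library, a log2 change of -0.30. ERVL-E-int stood at 0.0340 RPKM in the Daxx-deleted library and 0.0246 RPKM in the control library. RMER15-int, with 3107 copies, stood at 0.0204 RPKM in the Daxx-deleted library and 0.0181 RPKM in the control library. ERVL-E-int and RMER15-int were thus the higher ones. ERVL-B4-int had 0.0172 RPKM in the Daxx-deleted library and 0.0181 RPKM in the control library. HERVL74-int, with 151 copies, had 0.00959 RPKM in the Daxx-deleted library and 0.0229 RPKM in the control library, a log2 change of -1.17. It met the limit on level through its control value.

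The other 7 internal parts stood outside the limits. MER68-int, with 75 copies, was at 0.0176 RPKM in both libraries, and ERVL-int was at 0.00562 RPKM in the Daxx-deleted library and 0.00547 RPKM in the control library, log2 changes of 0.00015 and 0.03. HERV16-int had 0.00921 RPKM in the Daxx-deleted library and 0.00227 RPKM in the control library, a ratio of 4.06 between values below the limit on level. MER70-int was at 0.00224 RPKM in the Daxx-deleted library and listed at 0 in the control library. HERVL32-int, with 1 copy, LTR52-int, with 49, and MER76-int, with 16, were listed at 0 in both libraries.

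Internal parts and LTRs of matching name did not always lie on the same side. RMER15, the LTR with the most copies of all members (17626), stood at 0.0556 RPKM in the Daxx-deleted library and 0.0508 RPKM in the control library, a log2 change of 0.13 beside 0.17 for RMER15-int. HERVL74-int was lower while the LTRs numbered MER74, of which MER74A is described below, were each higher, with log2 changes of 0.54 for MER74A, 0.31 for MER74B and 0.67 for MER74C. MER74B and MER74C, picked for this comparison with their values known, are below the limit on level. HERVL40-int, at a log2 change of -0.30, lay on the same side as LTR40c, at -0.05. LTR40a, at 0.35, and LTR40b, at 1.10, lay on the other side but are below the limit on level.

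MLT2 LTRs, which flank mammalian ERVL elements, were higher without Daxx in all 7 families that met the limits, where 78.9% of all families were. The difference was between 0.02 and 0.81 on the log2 scale, with a median of 0.22. Relative to the median family, that median was 0.04 and 5 of the 7 lay above it, so the group as a whole moved about as much as the table did. MLT2D, with 1562 copies, had 0.0189 RPKM in the Daxx-deleted library and 0.0104 RPKM in the control library, a ratio of 1.82. MLT2C2 had 0.0207 RPKM in the Daxx-deleted library and 0.0132 RPKM in the control library, a ratio of 1.56. These 2 were the MLT2 families past 1.5-fold at the limits. The MLT2 families with high levels differed little: MLT2B5 stood at 0.225 RPKM in the Daxx-deleted library and 0.221 RPKM in the control library. MLT2F, picked with its value known, stood at 0.231 RPKM in the Daxx-deleted library and 0.208 RPKM in the control library. The remaining MLT2 families at the limits, picked with their values known apart from MLT2B2, were MLT2B1, MLT2B2 and MLT2B4. MLT2B1 had 0.0126 RPKM in the Daxx-deleted library and 0.00868 RPKM in the control library. MLT2B2 had 0.0109 RPKM in the Daxx-deleted library and 0.00924 RPKM in the control library, and MLT2B4 had 0.0113 RPKM in the Daxx-deleted library and 0.00987 RPKM in the control library. All 3 met the limit on level while their control values were below 0.01 RPKM. Of the 3 MLT2 families below that limit, 2 were higher, where 76.9% of all members below it with a value above 0 were. The third, MLT2B3, had 0.00941 RPKM in the Daxx-deleted library and 0.00978 RPKM in the control library.

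MER LTRs showed the same uniform but small difference. All 6 at the limits were higher, by between 0.05 and 0.54 on the log2 scale, with a median of 0.15, or -0.03 once the median family was subtracted. MER74A had 0.0363 RPKM in the Daxx-deleted library and 0.0245 RPKM in the control library, a ratio of 1.48. MER54B, with 114 copies, had 0.0376 RPKM in the Daxx-deleted library and 0.0364 RPKM in the control library. MER68, with 817 copies and picked with its value known, stood at 0.128 RPKM in the Daxx-deleted library and 0.116 RPKM in the control library, a log2 change of 0.14 beside 0.00015 for MER68-int. The other 3 at the limits, MER54A, MER76 and MER77, had log2 changes of 0.16, 0.06 and 0.19. MER88, the highest of the MER LTRs but with 58 copies, stood at 0.213 RPKM in the Daxx-deleted library and 0.185 RPKM in the control library. None of the 6 reached 1.5-fold. Of the 5 MER LTRs below the limit on level, 4 were higher, where 76.9% of all members below it with a value above 0 were. MER73, with 0.00263 RPKM in the Daxx-deleted library and 0.00463 RPKM in the control library, was the 1 lower. Together, a grouping made with their values known, the MLT2 and MER LTRs gave 13 higher families of 13, while the other groups gave 13 higher and 16 lower of 29. Over all families at the limits, 78.9% were higher and 21.1% lower. The limit on level bears on this count: MLT2B1, MLT2B2 and MLT2B4 met it through their Daxx-deleted values, and MLT2B3, which was lower, fell just outside it. Relative to the median family, 7 of the 13 lay above it.

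LTR16 repeats, numbered like the HERV16 internal part, were mixed. Of 11 families, 5 met the limits, and 3 of these were higher and 2 lower, with a median log2 change of 0.04. Among all families at the limits, 78.9% were higher and 21.1% lower. LTR16C, with 1365 copies, had 0.0132 RPKM in the Daxx-deleted library and 0.00767 RPKM in the control library, a ratio of 1.72. LTR16D, with 178 copies, had 0.0116 RPKM in the Daxx-deleted library and 0.0155 RPKM in the control library, a ratio of 0.748. LTR16C met the limit on level through its Daxx-deleted value, since its control value was below 0.01 RPKM. LTR16A, with 1500 copies and picked with its value known, had 0.0141 RPKM in the Daxx-deleted library and 0.0105 RPKM in the control library. LTR16B2 had 0.00977 RPKM in the Daxx-deleted library and 0.0108 RPKM in the control library. Of the 4 LTR16 families below the limit on level, all were higher, among them LTR16E1 at 0.00930 RPKM in the Daxx-deleted library and 0.00879 RPKM in the control library. Being higher was common there: 76.9% of all members below that limit with a value above 0 were.

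The same series holds the member with the highest level. LTR16D1, with 90 copies, stood at 1.13 RPKM in the Daxx-deleted library and 1.03 RPKM in the control library, a difference of 0.101 RPKM and a log2 change of 0.14. LTR16D2, with 65 copies, stood at 0.243 RPKM in the Daxx-deleted library and 0.254 RPKM in the control library. Both are outside the limit on copies. LTR16D1 alone made up 24.5% of the summed RPKM of the 79 families in the Daxx-deleted library and 23.7% in the control library, and the 5 highest members together made up 53.0% in the Daxx-deleted library and 53.1% in the control library. In contrast, 69 of the 79 were under 0.1 RPKM in both libraries. The summed level of all 79 families therefore describes a few of them, and a median describes the many. LTR16D1, LTR86B1 and LTR16D2, which are among the 5 highest, fall outside the limit on copies. They are thus not in the sum over the families at both limits, and shares of that smaller sum were not calculated.

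The LTR33 group had 3 of 4 families lower at the limits, where 21.1% of all families at the limits were. LTR33C had 0.0567 RPKM in the Daxx-deleted library and 0.0649 RPKM in the control library. LTR33A had 0.0322 RPKM in the Daxx-deleted library and 0.0341 RPKM in the control library, and the family listed as LTR33A_ had 0.0121 RPKM in the Daxx-deleted library and 0.0127 RPKM in the control library. These 3 lay within 0.20 of 0 on the log2 scale. LTR33B went the other way, at 0.0436 RPKM in the Daxx-deleted library and 0.0294 RPKM in the control library, a log2 change of 0.56. LTR33 itself, with 1458 copies, lay just below the limit on level at 0.00921 RPKM in the Daxx-deleted library and 0.00817 RPKM in the control library.

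Among the LTR40 and LTR41 repeats at the limits, the largest difference was in LTR41B, at 0.0985 RPKM in the Daxx-deleted library and 0.148 RPKM in the control library. Its ratio of 0.664 and difference of -0.0499 RPKM made it the member with the largest drop in RPKM. LTR41, of the same name series, stood at 0.0158 RPKM in the Daxx-deleted library and 0.0107 RPKM in the control library, a ratio of 1.47. LTR40c had 0.0169 RPKM in the Daxx-deleted library and 0.0175 RPKM in the control library. LTR40a, at 0.00927 RPKM in the Daxx-deleted library and 0.00708 RPKM in the control library, and LTR40b, at 0.00859 RPKM in the Daxx-deleted library and 0.00347 RPKM in the control library, were below the limit on level.

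The remaining LTR-numbered families held 19 members, of which 7 met the limits. Of those 7, 2 were higher and 5 lower, where 78.9% of all families at the limits were higher and 21.1% lower. Of the 7, 1 lay above the median family. That family was LTR79, at 0.0719 RPKM in the Daxx-deleted library and 0.0384 RPKM in the control library, a ratio of 1.88 and a difference of 0.0336 RPKM. LTR50, the highest member at both limits, had 0.365 RPKM in the Daxx-deleted library and 0.403 RPKM in the control library. LTR84b had 0.0395 RPKM in the Daxx-deleted library and 0.0570 RPKM in the control library, a ratio of 0.694. LTR53 and LTR82A, picked with their values known, had log2 changes of -0.21 and 0.17. LTR83 had 0.0927 RPKM in the Daxx-deleted library and 0.0938 RPKM in the control library. LTR82B, which the table classes as low complexity while giving it the superfamily ERVL, is named for that entry and had 0.0546 RPKM in the Daxx-deleted library and 0.0555 RPKM in the control library.

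The LTR86 families have under 100 copies each and spread widely. LTR86B1, with 45 copies, stood at 0.482 RPKM in the Daxx-deleted library and 0.400 RPKM in the control library. LTR86C, with 73 copies, had 0.00732 RPKM in the Daxx-deleted library and 0.0168 RPKM in the control library, and LTR86A1, with 97 copies, had 0.00604 RPKM in the Daxx-deleted library and was listed at 0 in the control library. The first is among the 5 highest members, and the last was one of 3 members listed at 0 in the control library only. LTR80A, at 0.00878 RPKM in the Daxx-deleted library, was another, as was MER70-int. LTR80B, of the same name series as LTR80A and picked with its value known, had 0.00466 RPKM in the Daxx-deleted library and 0.00788 RPKM in the control library.

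The rodent-named families hold the members with the most copies and, apart from one, differed little. RMER10A, with 4433 copies, had 0.0393 RPKM in the Daxx-deleted library and 0.0378 RPKM in the control library. RMER10B, with 3291 copies, had 0.0335 RPKM in the Daxx-deleted library and 0.0317 RPKM in the control library. RLTR28, with 2013 copies, had 0.0306 RPKM in the Daxx-deleted library and 0.0360 RPKM in the control library, a ratio of 0.848. RLTR28B, with 839 copies, stood at 0.0321 RPKM in the Daxx-deleted library and 0.0152 RPKM in the control library, a ratio of 2.12 and a log2 change of 1.03, the highest among the 42. The log2 change of RLTR28 was -0.23, so these families of one name series lay on opposite sides of 0.

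Most of the 2-fold differences were in members below the limit on level. Of the 37 outside a limit, 22 were below the level only, 7 had under 100 copies only and 8 were outside both, and 4, LTR32 among them, were listed at 0 in both libraries. Without any limit, 75 of the 79 had a value above 0 in a library, and 51 of these (68.0%) were higher, where the share over all such families was 76.9%. Of the 75, 11 (14.7%) were at least 2-fold higher, where 9.82% of all such families were, and 2 (2.67%) were at least 2-fold lower, where 2.16% were. Of the 11, 10 had a mean below 0.01 RPKM and none of these exceeded 0.0131 RPKM in the Daxx-deleted library. Besides those given above, they were LTR16B, LTR16E2, LTR52, LTR84a and MER70B, named here with their values known. LTR84a had 0.0131 RPKM in the Daxx-deleted library and 0.00245 RPKM in the control library, while LTR84b, described above, was lower. How many reads stand behind such values cannot be given, because library depth is unknown. Among families with at least 100 copies, those nearest to the limit on level were MLT2B3 and LTR16E1 outside it, at means of 0.00959 and 0.00905 RPKM, and MLT2B2 and LTR16B2 inside it, at 0.0101 and 0.0103 RPKM. Among families at the limit on level, those nearest to the limit on copies were LTR16D1 outside it and MER54B inside it.

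**Figure D2:**
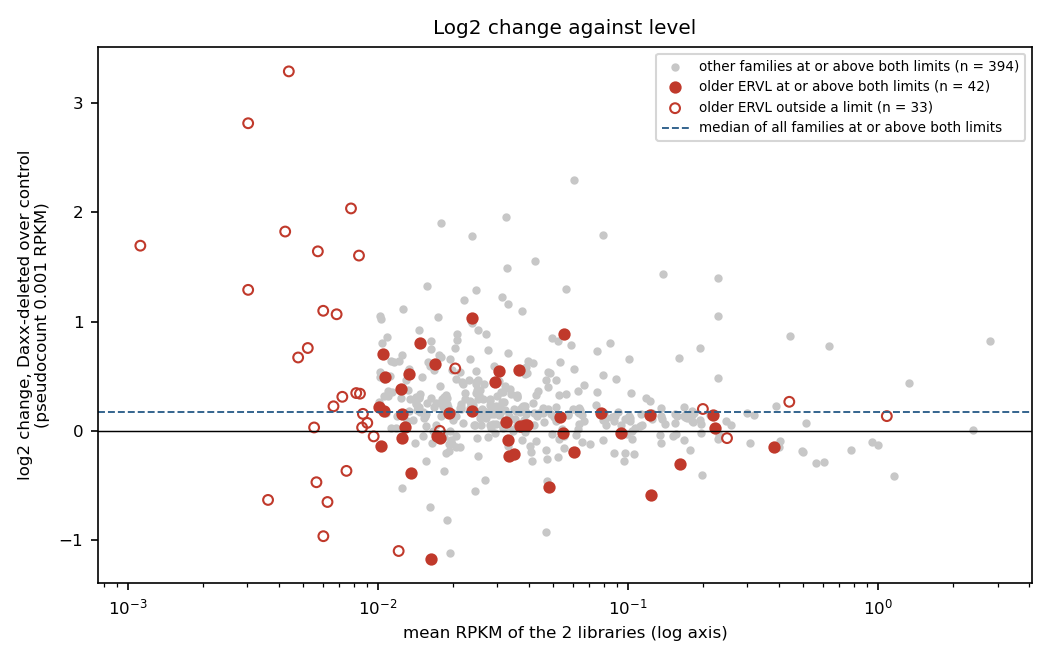
Log2 change of the Daxx-deleted library over the control library (pseudocount 0.001 RPKM) against the mean RPKM of both libraries on a log axis, for 42 older ERVL families at or above both limits (filled red), 33 outside a limit with a value above 0 (open red) and 394 other families (grey). The open points below 0.01 RPKM reach 3.29, while the filled points run from -1.17 to 1.03, and most of them lie under the dashed line at 0.18, the median of all families at the limits.

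The difference from the rest of the table varied with the number of copies. The classes of copies used here were set with the values known. Among members with at least 100 and under 300 copies, 3 of 12 were higher, with a median log2 change of -0.20, while 70.9% of 55 other families with as many copies were higher, with a median of 0.19. With at least 300 and under 1000 copies, 12 of 17 members were higher (70.6%), with a median of 0.15, beside 82.1% of 95 other families, with a median of 0.26. With at least 1000 copies, 11 of 13 members were higher (84.6%), with a median of 0.18, beside 82.4% of 244 other families, with a median of 0.17. The many-copy members thus lay where other many-copy families lay, and the low median of the 42 came with the members of fewer copies. Across the 42, Spearman's rho of log2 change with copies was 0.49, and across the 394 other families it was -0.10. These are descriptions across families, which share 2 libraries and can share reads. With no limits, rho among the members was 0.20. Mean level moved with copies as well, with a rho of -0.29 among the 42, and its part in the difference was not tested.

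**Figure D3:**
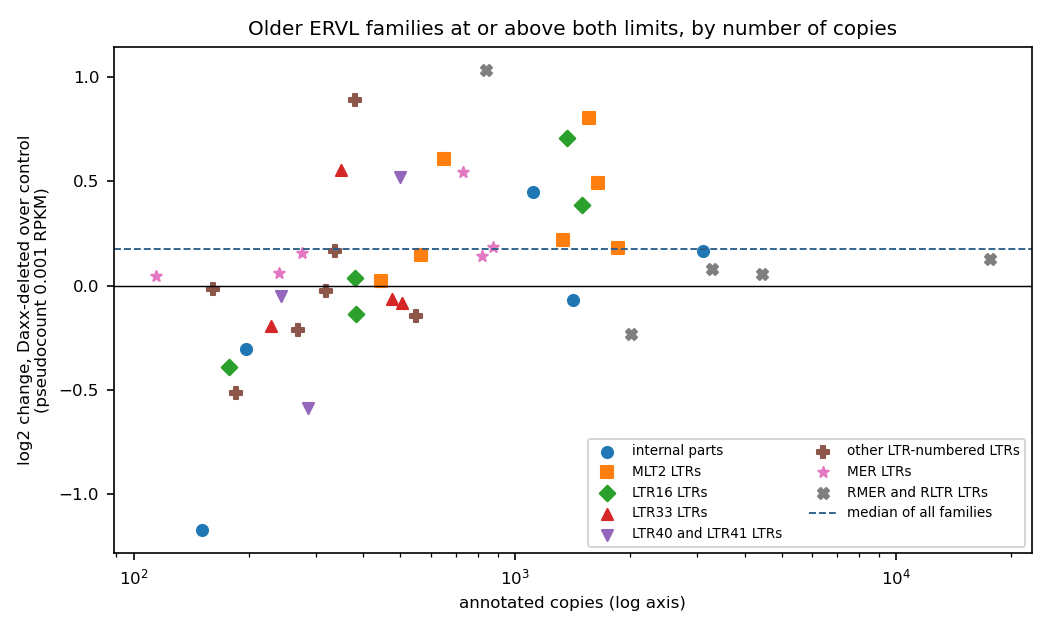
Log2 change of the Daxx-deleted library over the control library (pseudocount 0.001 RPKM) against annotated copies on a log axis for the 42 families, with a marker for each name group and a dashed line at the median of all families, 0.18. Of the 12 families with under 300 copies 9 lie below 0, while of the 13 with at least 1000 copies 11 lie above it.

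Split by level into 3 classes of 14, the typical size of the difference was smaller in the higher classes. In the class of lowest mean RPKM, 4 of 14 were past 1.5-fold in either direction, and the median size of the log2 change was 0.39, beside 23.5% of 68 other families in that range of levels and a median size of 0.31. In the middle class 1 of 14, RLTR28B, was, with a median size of 0.18, beside 16.3% of 160 other families and a median size of 0.23. In the highest class 2 of 14 were, LTR79 and LTR41B, with a median size of 0.15, beside 13.9% of 166 other families and a median size of 0.16. The size of the difference thus fell with level in the other families too. In the highest class 7 were higher and 7 lower, with a median log2 change of 0.0046, while 120 of the 166 other families in that range of levels were higher, with a median of 0.13. The members' median was the lower one in the other classes too, at 0.20 beside 0.30 in the lowest class and 0.07 beside 0.22 in the middle class. Spearman's rho of log2 change with mean level was -0.31 across the 42 and -0.27 across the 394 other families.

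Within the same superfamily, the MERVL and MT2 families are the nearest comparison. Their 7 families had a summed level of 0.510 RPKM in the Daxx-deleted library and 0.362 RPKM in the control library, a ratio of 1.41, beside the ratio of 1.003 for the 42. Most of that lay in MERVL-int and MT2_Mm, with log2 changes of 2.30 and 1.56. No older ERVL family at the limits reached either value. The other 5 lay between -0.03 and 0.35, within the range of the older families, and the median over all 7 was 0.16. MaLR families, the related class III group, had a higher value in 65 of 78 cases (83.3%) and a median log2 change of 0.18, and the quartiles were 0.07 and 0.31. The interquartile range was 0.42 for the older ERVL families and 0.24 for the MaLR families. These sets differ in copies, with a median of 502 for the older ERVL families and 1775.5 for the MaLR families. The part of copies in the comparison was not tested. With 1 library in each group, no test of these differences was possible.

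**Figure D4:**
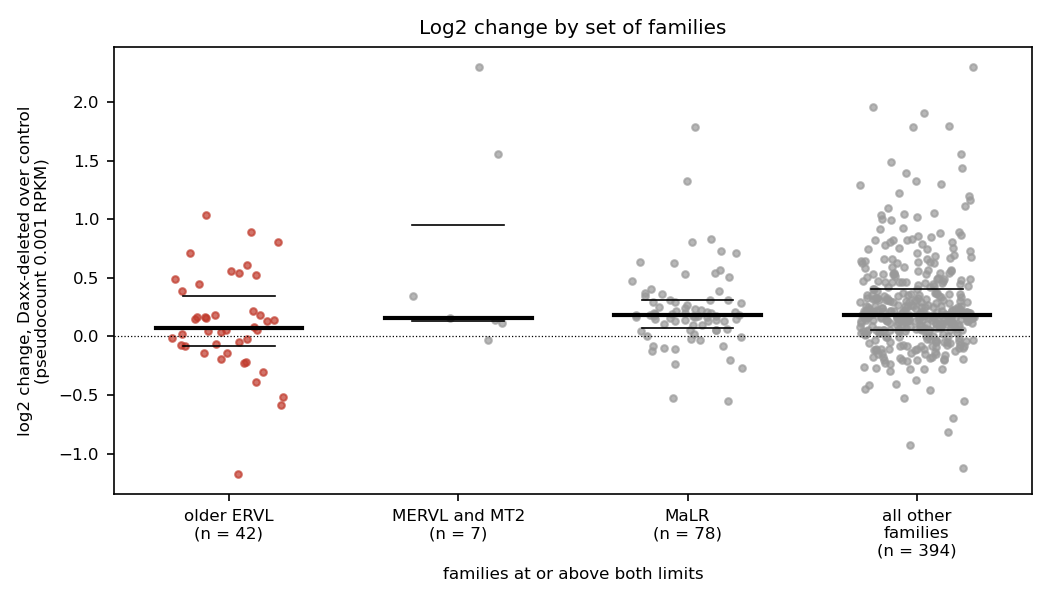
Log2 change of the Daxx-deleted library over the control library (pseudocount 0.001 RPKM) for families at or above both limits, each point 1 family, with thick lines at medians and thin lines at quartiles. The median is 0.07 for 42 older ERVL families, 0.16 for 7 MERVL and MT2 families, 0.18 for 78 MaLR families and 0.18 for all 394 families other than older ERVL, which include the MERVL, MT2 and MaLR families.

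Each value sums reads over copies scattered through the genome and belongs to no single locus. Multi-mapped reads were kept, so 1 read may be counted in several members of a name series, and the families counted above are not independent. The table does not separate transcripts that start in an LTR from those of genes that contain a copy. In bulk RNA, fewer cells with a transcript and less of it in each cell cannot be told apart.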

How the data were processed

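Total RNA of 1 Daxx-deleted and 1 control culture was made into libraries with the TruSeq RNA kit, per the labels' protocols. Alignment to mm9 by the authors used JAGuaR 2.1, a BWA-based aligner given the exon-exon junctions of Ensembl 67, per the file headers and info sheet; BWA 0.7.10 is in the submitters' processing notes. For the deposited RPKM values, the scale was the number of exonic reads of protein-coding genes after removal of ribosomal protein and mitochondrial genes and of the 0.5% of exons with the highest expression, and multi-mapped reads were retained, per the info sheet. Not given in the sources used here are the sharing of such reads, the repeat annotation, the use of strand and the total reads, so no counting error is attached. A family's value also moves with the exonic total that sets the scale. Columns were matched to samples by treatment, with 0 columns left over.

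The members, name groups, limits (100 or more copies and a mean of 0.01 RPKM or more), pseudocount (0.001 RPKM) and thresholds (2-fold and 1.5-fold) were chosen with earlier results of these data known. Name groups take the first match of: internal parts, MLT2, LTR16, LTR33, LTR40 and LTR41, other LTR, MER, and RMER with RLTR. Ratios are quotients of deposited values without pseudocount; the log2 change understates differences of low families. With 1 library in each group, nothing was tested. Values are given for all internal parts, the 5 highest levels, the 5 with most copies, the 6 most positive and 6 most negative log2 changes at the limits, the highest level and largest change in each name group, families nearest to a limit and families listed at 0 in 1 library; this rule named 43 members, and groups of 5 or fewer are given whole. The calculation was checked on simulated data with planted folds. Software was pandas 2.3.3, numpy 2.4.6 and, for figures, matplotlib 3.10.9 under Python 3.11.15. No genome coordinates were used.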

Additional observations from a re-analysis of the deposited data

How the results depend on the processing

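With single libraries, a log2 value is counted as moved here when it shifted by over 1.5-fold (0.58), a count when it changed by over 1.5 times and a rho by 0.2. The count of 1 family 2-fold higher became 0 with a pseudocount of 0.01 or 0.1 RPKM, after subtraction of the all-family median, at a limit of 0.05 RPKM, with at least 1000 copies and at 3-fold, 5 at 1.5-fold and 11 with no limits. The count of 1 family 2-fold lower became 0 with a pseudocount of 0.01 or 0.1 RPKM, at a limit of 0.05 RPKM, with at least 1000 copies and at 3-fold, and 2 at 1.5-fold, with no limits and with no minimum of copies. Stricter limits test fewer families. The rho of log2 change with copies became 0.20 with no limits. The median of the 42 families moved by less than the limit throughout, from -0.11 after subtraction of the all-family median, where it changed sign, to 0.18 with at least 1000 copies. The log2 ratio of sums was 0.004, 0.19 with at least 1000 copies and -0.04 at a limit of 0.05 RPKM, and so crossed 0. The medians of name groups stayed within that limit too, which says little for values below it; the medians of the LTR16, MER, and RMER and RLTR groups changed sign after the subtraction, that of the internal parts was 0.17 with at least 1000 copies, and that of the LTR40 and LTR41 group was 0.35 with no limits. No LTR16 family reached 0.05 RPKM at 100 copies, and no LTR33, LTR40 and LTR41, other LTR-numbered or MER family at the limit on level had 1000 copies, so these were not run. Of the single-family values, 156 did not move and 16 did, all with another pseudocount. Subtraction of the all-family median shifts every family by 0.18, below the limit, so it could move none. A larger pseudocount draws values towards 0, so a log2 change smaller than the limit could not move with it. The count of 156 therefore says little about stability. Leaving out LTR82B, or adding the 2 families of superfamily ERVL? (both chosen after seeing the data), moved neither count at 2-fold, nor the median of all members, nor the ratio of sums; name-group medians and rhos were not recomputed for these. No paired analysis was possible because only 1 library per group exists here.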
